A study of Mus musculus with 2 samples.

Results

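High endothelial cells line the postcapillary venules through which lymphocytes leave the blood and enter lymph nodes. Among 9919 endothelial-sorted cells of mouse lymph nodes, 322 were taken as high endothelial cells, 221 of them in library 1 and 101 in library 2. A cell counted as one when it held at least 20 unique molecular identifiers (UMIs, each standing for 1 captured RNA molecule) of Glycam1 and at least 10 of Ccl21a, with fewer than 2 UMIs of Cd79a, Cd79b, Ptprc and Cd3e together. Cells had at least 500 detected genes, at most 10% mitochondrial UMIs, and a top hashtag of at least 10 UMIs that was at least 3 times the next tag. The cells were thus chosen by their Glycam1 and Ccl21a counts, whose levels are given below as description and were not tested.

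Each of the 2 single-cell libraries mixed 4 pools of cells, each marked by its own antibody-borne hashtag. Tags HT4 and HT5 marked wild-type (WT) cells of peripheral and of mesenteric nodes, and HT6 and HT7 marked Xbp1-KO cells of the same node types, so each of the 4 groups had 1 pool in each library (n = 2). Where 4 values of a library are listed, they follow this order of tags. Tamoxifen, the usual inducer of conditional Cre recombinases, was given to mice of both genotypes. The Cre line, the deleted part of Xbp1, the number, age and sex of the mice, and whether the libraries came from separate animals are not given in the sources used here, so p-values measure the spread between these pools only. Nodes were enzymatically digested, depleted of CD45-bearing cells on beads and sorted for endothelial cells. High endothelial cells numbered 5, 75, 34 and 107 in library 1 and 7, 40, 4 and 50 in library 2, and 272 of the 322 were mesenteric. Summed UMIs per pool ran from 29714 to 1033696, and both extremes were Xbp1-KO pools. The 2 libraries shared 3 cell barcodes, none of them among the high endothelial cells.

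In high endothelial venules the luminal surface carries sialomucins such as GlyCAM-1 whose sugar chains end in sulfated sialyl Lewis X, the ligand of L-selectin on lymphocytes. Fut7, a fucosyltransferase, and Chst4, a sulfotransferase, finish those sugar chains, and Ccl21a encodes a chemokine that arrests rolling lymphocytes through CCR7. Ubd encodes a ubiquitin-like protein that marks these venules in mouse nodes, and lymphotoxin-beta receptor and NF-kB signalling maintain the whole program. Mesenteric nodes, which drain the gut, add MAdCAM-1, the ligand of the gut-homing integrin alpha4beta7. XBP1, activated when unfolded proteins build up in the ER, raises genes of protein entry, folding and transport along the secretory pathway. The series concerns its part, and that of CREB3L factors, in mucin production.

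Markers that the rule did not use fitted the name. Fut7 was detected in 86.6% of the high endothelial cells against 2.87% of the other cells, Chst4 in 47.5% against 0.542%, and Ubd in 98.8% against 15%. Median depth differed between these classes, at 9439 and 3739 UMIs per cell. In 4076 other cells with at least 3 UMIs of the capillary genes Cd36, Rgcc and Gpihbp1, at a median of 2739.5 UMIs, Fut7 was detected in 1.18%, Chst4 in 0.0981% and Ubd in 9.81%. Glycam1 itself was in 41.4% of those capillary-gene cells and Ccl21a in 7.63%, so low counts of Glycam1 were widespread in cells that should lack it. Capillary genes went the other way, with Cd36 in 13.4% of high endothelial cells against 50.1% of the others and Rgcc in 7.14% against 45.1%. Of the 322 cells, 35 also held at least 2 UMIs of the lymphatic endothelial genes Prox1, Lyve1, Pdpn, Mmrn1 and Reln together, 11 of 50 peripheral and 24 of 272 mesenteric cells. In the WT peripheral pool of library 1 they were 3 of the 5 cells. Where a sentence says that the 35 cells were left out, it refers to these.

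The rule's thresholds fell in thin parts of the distribution. There were 13 cells with 20 to 29 Glycam1 UMIs, and 14 cells fell just outside with 10 to 19. Just inside, Fut7 was detected in 76.9%, Ubd in 84.6% and Chst4 in 23.1% of cells. Just outside, the same genes were detected in 71.4%, 92.9% and 0%. The cells on either side of the Glycam1 threshold thus resembled each other in Fut7 and Ubd. At the Ccl21a threshold 2 cells held 10 to 14 UMIs and 2 held 5 to 9. A further 15 cells met both thresholds and were set aside for 2 or more blood-cell UMIs, at a median depth of 13233 UMIs.

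Promoter sequences are shown for the markers Glycam1 and Ubd, whose levels per cell ran over wider ranges than that of Ccl21a, and for Madcam1, which differed between node types. They run from 250 bases before to 50 after each gene's start (RefSeq, GRCm38.p6; all 8 promoters looked up were found). Capitals mark matches, on either strand, to a form of the NF-kB motif (GGG and TTTCC with any 2 bases between them) and to AAGTG, the core recognised by NK2 homeobox factors; the letters were chosen after the sequences had been seen. No matches overlapped.
Glycam1 (chr15:103565032-103565331, minus strand): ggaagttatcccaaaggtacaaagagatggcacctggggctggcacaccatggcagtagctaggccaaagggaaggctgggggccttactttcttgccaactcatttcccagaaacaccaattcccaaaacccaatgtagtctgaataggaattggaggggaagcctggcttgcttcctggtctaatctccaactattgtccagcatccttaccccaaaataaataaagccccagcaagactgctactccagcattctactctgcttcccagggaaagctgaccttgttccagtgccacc
Madcam1 (chr10:79664309-79664608, plus strand): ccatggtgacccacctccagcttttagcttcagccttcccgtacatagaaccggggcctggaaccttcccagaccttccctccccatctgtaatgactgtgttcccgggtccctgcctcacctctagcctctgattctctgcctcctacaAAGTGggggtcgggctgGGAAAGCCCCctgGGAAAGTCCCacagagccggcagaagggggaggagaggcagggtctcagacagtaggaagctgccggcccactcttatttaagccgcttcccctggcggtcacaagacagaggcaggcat
Ubd (chr17:37193642-37193941, plus strand): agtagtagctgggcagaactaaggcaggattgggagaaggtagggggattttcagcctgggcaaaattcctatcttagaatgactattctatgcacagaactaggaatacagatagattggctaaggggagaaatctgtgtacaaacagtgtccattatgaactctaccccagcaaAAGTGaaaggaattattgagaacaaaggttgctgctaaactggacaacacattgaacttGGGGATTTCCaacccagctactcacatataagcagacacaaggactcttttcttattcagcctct
The Madcam1 window held the NF-kB form at -83 and -70 from the start, both on the strand opposite to the gene, and AAGTG at -100. The Ubd window held it at -15 and AAGTG at -74, and the Glycam1 window held neither. Among 32851 promoter windows of this length, 1.63% held the NF-kB form at least once and 0.0304% (10 windows) held it at least 2 times, while AAGTG was in 46.4%. Such a match describes letters only and does not show binding.

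The share of cells called high endothelial varied widely between pools of one group. In library 1 it was 0.223% of peripheral (95% Clopper-Pearson interval 0.0725 to 0.520) and 4.22% of mesenteric cells (3.34 to 5.27) in the WT pools, and 1.43% (0.991 to 1.99) and 13.7% (11.4 to 16.4) in the Xbp1-KO pools. In library 2 the same groups gave 1.29% (0.519 to 2.63), 9.50% (6.87 to 12.7), 0.471% (0.128 to 1.2) and 5.39% (4.03 to 7.05). The intervals cover counting error only. Mesenteric pools were higher than the peripheral pool of the same genotype and library in 4 of 4 pairs. The Xbp1-KO pools were above their WT pools in library 1 and below them in library 2. Digestion and sorting can set such shares, and their part was not tested.

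Glycam1 (Ensembl identifier ENSMUSG00000022491; chr15:103562759-103565081, minus strand, GRCm38) varied far more from cell to cell than Ccl21a. Per cell it ran from 20 to 8130 UMIs with a median of 565, and it made up as much as 47.9% of a cell's UMIs and 11.8% of all UMIs of the class. Scaled to depth, its median was 649 UMIs per 10000, and its 10th and 90th percentiles, 70.8 and 2862, lay 40.4-fold apart. Ccl21a (chr4:42772860-42773993, minus strand) had a median of 214 UMIs per 10000, with 89.1 and 407 at the same percentiles, 4.57-fold apart. The Ubd percentiles were 4.84 and 46.3 per 10000 around a median of 19.2, 9.56-fold apart. Fut7 was too sparse for such a range, with a median of 3 UMIs per cell and at most 23, and Chst4 reached 10 UMIs at most.

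The spread of Glycam1 was partly a difference between pools. The median in library 1 was 212 and 269 UMIs per 10000 in the WT pools (peripheral, then mesenteric) and 2698 and 1185 in the Xbp1-KO pools. In library 2 it was 1395 and 894 in the WT and 456 and 340 in the Xbp1-KO pools. In library 1 both Xbp1-KO pools therefore stood above their WT pools, and in library 2 both stood below them: the difference in medians was 2486 in peripheral and 916.9 in mesenteric cells of library 1, and -938.5 and -554.1 in library 2. With the 35 cells left out the medians were 381, 219, 2902 and 1191 in library 1 and 1759, 894, 340 and 326 in library 2. Xist, the transcript that coats the inactive X chromosome, was present in 20%, 10.7%, 91.2% and 90.7% of cells in library 1 and in 100%, 85.0%, 0% and 2.00% in library 2. The 4 pools in which most cells carried Xist were the 4 with the highest Glycam1 medians. Ddx3y, a Y-linked gene, gave 45 UMIs in mesenteric WT cells of library 1 and 33 in mesenteric Xbp1-KO cells of library 2, and at most 2 UMIs in every other pool. Genotype and the Xist-carrying pools go opposite ways in the 2 libraries, and the part of either in the Glycam1 level was not tested.

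**Figure D1:**
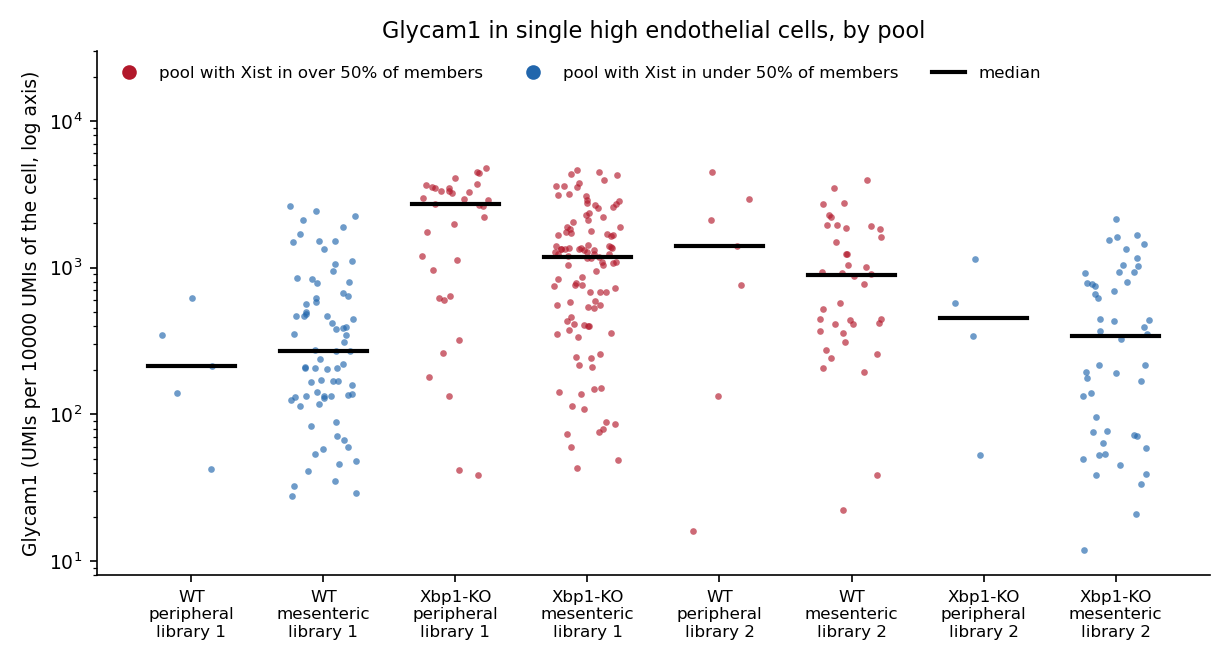
Glycam1 UMIs per 10000 UMIs in each high endothelial cell (log axis), by pool and library; red points are cells of pools in which over 50% of cells carried Xist, and the black bar is the pool median. The pools with Xist have medians from 894 to 2698, and the other 4 have medians from 212 to 456.

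The strength of the high endothelial program was scored per cell as the mean of ln(1 + UMIs per 10000) over Fut7, Chst4 and Ubd, none of which entered the rule. The score formed a single range from 0.166 to 2.81 with a median of 1.63, and its 10th and 90th percentiles were 0.944 and 2.19. All 3 genes were detected in 142 cells, and no cell lacked all 3. Pool medians were 1.49, 1.62, 1.65 and 1.57 in library 1 and 1.62, 1.71, 1.39 and 1.80 in library 2. Peripheral pools averaged 1.54 ± 0.121 and mesenteric pools 1.67 ± 0.101 (SD, n = 4 pools each), a difference of -0.14 that did not pass an exact two-sided permutation test (p = 0.143, smallest possible 0.0286). WT and Xbp1-KO pools averaged 1.61 ± 0.0890 and 1.6 ± 0.171, with p = 0.944 in the exact test permuted within tissue, which cannot go below 0.0556. With the 35 cells left out, the differences were -0.09 between node types (p = 0.714) and -0.10 between genotypes (p = 0.722), in the same exact permutation tests. Unlike Glycam1, the score had no order that set 1 genotype apart in both tissues of a library.

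Within the class, the genes that went with a high score were compared between high-score and low-score cells, divided at the median of each pool, 16 sums in all, with the pool as a block. Of 2267 genes tested, 14 (0.618%) passed an adjusted p of 0.05 (edgeR quasi-likelihood test, Benjamini-Hochberg), 6 higher (0.265%) and 8 lower (0.353%) in high-score cells. Cells near the division are alike: 60 of the 322 lay within 0.1 of their pool's median. High-score cells were deeper in all 4 mesenteric pools, at medians of 10433 against 6992.5, 10948 against 7918, 11879 against 11279 and 12091 against 10048 UMIs per cell, and shallower in both WT peripheral pools. When every cell was thinned to 5000 UMIs, which kept 295 cells, 3 of 967 genes tested (0.31%) were called, Apoe, Btg2 and Fos, all lower in high-score cells. Without the mesenteric Xbp1-KO pool of library 2, 1 gene was called. With the 35 cells left out, 13 of 1868 genes (0.696%) were called, and 9 of these were called with all cells.

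Genes lower in strongly scoring cells included vascular genes and immediate-early genes. Sparcl1, a secreted matrix protein of blood vessels, fell from 128, 202, 128 and 43.0 CPM in low-score cells of library 1 to 96.4, 108, 37.7 and 31.5 in high-score cells (CPM, counts scaled to library size as set out under processing). In library 2 it fell from 184, 76.3, 413 and 40.3 to 63.5, 20.9, 72.7 and 8.23 CPM. High-score cells had less of it in 8 of 8 pools, with a log2 difference of -1.21 ± 0.24 (SE, adjusted p = 0.0109), although the ranges over pools overlapped. Ptprb, an endothelial receptor phosphatase that restrains TIE2, and Cxcl12, a chemokine, were likewise lower in 8 of 8 pools, by -0.78 ± 0.19 and -1.39 ± 0.33 (both adjusted p = 0.0405). The WT peripheral pool of library 1 and the Xbp1-KO peripheral pool of library 2 held 4 Cxcl12 UMIs each, few for a direction. Hmgb2 and Apoe also fell, by 0.92 and 0.68 on the log2 scale, though not in every pool. The immediate-early genes Nr4a1 and Btg2 fell by 1.47 and 0.60 on the log2 scale (adjusted p = 0.0109 and 0.0353), each in 8 of 8 pools. Nr4a1 had only 4 UMIs in each WT peripheral pool and 5 in the WT mesenteric pool of library 2. On the list of dissociation-response genes, which are induced during enzymatic tissue digestion, none of 14 tested genes had a positive difference and the median was -0.42, beside -0.01 over all genes. With the 35 cells left out, Sparcl1 had -1.43, Ptprb -0.90, Hmgb2 -0.99 and Apoe -0.98, all called, and Btg2 had -0.39 without a call (adjusted p = 0.445). Of 13 dissociation-response genes 2 were then positive.

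Madcam1 was among the genes lower in high-score cells. In mesenteric pools its level went from 4096 to 2377 and from 6248 to 3872 CPM in library 1 (WT, then Xbp1-KO), and from 5517 to 3958 and from 5446 to 2536 CPM in library 2. In every mesenteric pool the high-score cells were below the low-score cells. The difference over all pools, peripheral ones included, was -1.22 ± 0.22 (adjusted p = 0.0054) and is not a mesenteric value. In peripheral pools 1 cell held 58 of 58 (WT) and 121 of 141 (Xbp1-KO) Madcam1 UMIs of library 1. In the WT peripheral pool of library 2, 1 cell held 44 of 52. The call was lost when cells were thinned to one depth, under DESeq2, when Fut7 or Chst4 was left out of the score, and without library 1 or the mesenteric Xbp1-KO pool of library 2. The difference over all pools was -0.70 (adjusted p = 0.0145) with the 35 cells left out. No lower gene was called with Chst4 left out of the score, where Nr4a1 was not among the genes tested. With Ubd left out, Madcam1 was the 1 gene of the 14 still called.

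The genes higher in high-score cells were few and of mixed function. Pglyrp1, which encodes a peptidoglycan-binding protein, rose from 1213 to 1766 and from 1579 to 1867 CPM in the mesenteric pools of library 1 and from 880 to 1397 and 787 to 1219 in those of library 2. Its difference was 0.50 ± 0.11 (adjusted p = 0.0353), with high-score cells above low-score cells in 8 of 8 pools. The proteasome subunit gene Psmb7 was also higher in 8 of 8 pools, by 0.75 ± 0.17 (adjusted p = 0.0285). Mustn1 (1.34 ± 0.23), Serpinb1a (0.97 ± 0.17), a protease inhibitor, Hyal2 (0.79 ± 0.16), a hyaluronidase, and Aprt (0.63 ± 0.15), a purine salvage enzyme, rose in 6 or 7 of 8 pools. Pglyrp1 was no longer called (0.34, adjusted p = 0.52) with the 35 cells left out. Of the 6 higher genes, Mustn1 alone was still called without Chst4 in the score, none was without Ubd, and none was on thinned cells, where Mustn1 was not among the genes tested. Genes of the secretory pathway stood near 0: 13 of 22 genes of ER translocation and N-glycosylation were positive with a median of 0.01, and 13 of 22 of ER to Golgi transport with a median of 0.06, none of them called. Of the capillary and transitional genes 1 of 6 was positive, at a median of -0.24.

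A second division, by the Glycam1 share of each cell's UMIs, was made after the data had been seen. Glycam1 chose the cells, so the differences between Glycam1-rich and Glycam1-poor cells are given as values with no test. The division placed 202 of the 322 cells (62.7%) on the same side as the score did. By value Chst4 was higher by 0.88, Ubd by 0.56 and Fut7 by 0.37 in Glycam1-rich cells (log2 difference of the fitted means). Chst2, Gcnt1, St3gal4, St3gal6 and Galnt1, enzymes that build or decorate the L-selectin ligand, were all positive, from 0.14 for St3gal6 to 0.53 for Gcnt1, at a list median of 0.28 beside 0.01 over the 2204 genes compared. Of 22 genes of ER translocation and N-glycosylation, 17 were positive, at a median of 0.14. Glycam1-rich cells were deeper in all 8 pools, for example 10448 against 7667.5 UMIs per cell in the Xbp1-KO mesenteric pool of library 1.

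Ptgds, which encodes prostaglandin D synthase, and Ly6i, a small surface protein gene, had the highest values by this division. Ly6i was 54.7, 43.5, 161 and 88.1 CPM in Glycam1-poor cells of library 1 and 136, 55.2, 874 and 145 CPM in Glycam1-rich cells. In library 2 it was 21.5, 98.8, 0 and 32.1 CPM and 1349, 353, 73.9 and 43.8 CPM. It was higher in Glycam1-rich cells of 8 of 8 pools, by 1.67, although the ranges over pools overlapped. The WT peripheral pool of library 1 held 6 Ly6i UMIs and the Xbp1-KO peripheral pool of library 2 held 2, so the direction there rests on few molecules. Ptgds was higher by 1.77, in 7 of 8 pools. Over whole pools, Ptgds stood at 43.2, 41.2, 203 and 126 CPM before TMM scaling in library 1 and at 340, 53.9, 67.3 and 36.3 in library 2. Single cells carried much of it: 1 cell held 21 of the 26 UMIs behind the value of 340, and that pool was at 85.5 without it.

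Sparcl1 and Ptprb were lower by this division too, by -1.88 and -1.12, each in 8 of 8 pools. Sparcl1 in Glycam1-rich cells was 34.0, 81.2, 29.5 and 18.8 CPM in library 1 and 106, 5.11, 73.9 and 3.98 in library 2. Cells poor in Glycam1 held 192, 221, 112 and 54.4 CPM in library 1 and 150, 93.6, 439 and 44.1 in library 2. Cdkn1a, a cell cycle inhibitor, had -1.19, and Slco2a1, a prostaglandin transporter, -1.17. Capillary and transitional genes gave 1 positive of 6 with a median of -0.44, and among them the fatty-acid-binding protein genes Fabp5 and Fabp4 had -1.03 and -0.69 and Kdr, a receptor of VEGF, -0.50. None of 13 dissociation-response genes was positive, and the median was -0.47. Among the other 287 cells Ly6i had 1.49, Ptgds 1.5, Sparcl1 -1.97 and Ptprb -0.997. Both divisions were made on the same cells, so their shared genes are not separate evidence.

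**Figure D2:**
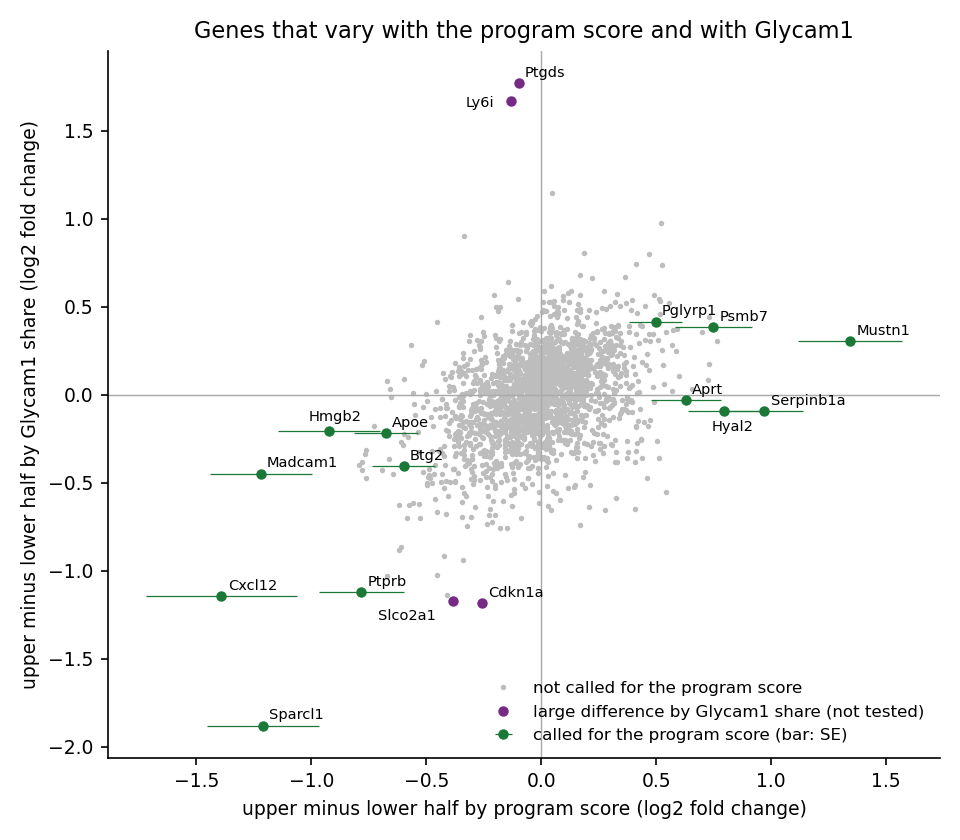
Log2 difference between high and low cells of each pool for genes tested in both divisions and reported here, by program score (x axis) and by Glycam1 share (y axis); green points with SE bars passed the test for the score, and purple points have large differences by Glycam1 share, which was not tested. Sparcl1 and Ptprb lie below 0 on both axes, while Ptgds and Ly6i lie high on the y axis only.

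Immature cells were looked for through capillary genes and division. The list of capillary and transitional genes summed to between 27.8 and 76.1 UMIs per 10000 by pool and was highest in the 4 Xbp1-KO peripheral cells of library 2. At least 2 of its UMIs were in 321 of 322 cells (99.7%), so this sum does not single out immature cells. The list of 8 genes of cycling cells gave at least 2 UMIs in 73 of 322 cells (22.7%). It stood at 4.33 UMIs per 10000 in the Xbp1-KO mesenteric pool of library 2, where 36% of cells had at least 2, and at 0.711 to 1.05 in the other 7 pools. Most of these UMIs were of Hmgb2, a chromatin protein gene, with 270 UMIs in 136 cells, and of Stmn1, with 116 in 43 cells, both also expressed outside division. Top2a, a topoisomerase of dividing cells, gave 24 UMIs in 3 cells, 22 of them in that same pool, and Mki67 gave 22 UMIs in 8 cells, 14 of them there.

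Madcam1 (chr10:79664559-79668537, plus strand, GRCm38), whose promoter is printed above, separated the node types. The pools held 58, 1807, 141 and 3777 UMIs of it in library 1, and 52, 1843, 0 and 1966 in library 2, where the second and last value of each are mesenteric. After scaling, these were 965, 2854, 537 and 4516 CPM in library 1 and 675, 4368, 0 and 3726 CPM in library 2. Every mesenteric pool lay above every peripheral pool. The peripheral minus mesenteric difference was -2.70 ± 0.37 (adjusted p = 0.000125), 1 of 24 genes called among 5634 tested (0.426%). With library as a block in the edgeR fit, 50 genes were called, Madcam1 among them. DESeq2 gave Madcam1 -2.81 with an adjusted p of 0.497. Without the peripheral Xbp1-KO pool of library 1 that group holds 0 UMIs of Madcam1, and no fold is given. Hamp, the hepcidin gene, was the other called gene lower in peripheral pools (-3.55 ± 0.66), in 3 of 4 pairs. The peripheral pools held 0 and 1 UMIs of it in library 1 and 3 and 1 in library 2 (WT, then Xbp1-KO), so its p is not given. The mesenteric pools held 64 and 302 in library 1 and 6 and 271 in library 2, most of them in Xbp1-KO pools. The Hamp call was lost without the peripheral Xbp1-KO pool of library 1.

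Genes of lymphatic endothelium were among those higher in peripheral pools. Of the 22 genes higher in peripheral pools (0.39% of those tested), the largest differences were in Mmrn1 (6.60), Sema3d (6.44), Gdf10 (6.11) and Ackr4 (5.06), with Prox1 at 3.97 and Stab2 at 3.85, genes of lymphatic endothelium or of node sinuses. The mesenteric pools held 0, 6, 0 and 1 UMIs of Mmrn1 and 0, 7, 0 and 0 of Sema3d. They held 3, 0, 1 and 0 of Gdf10 and 2, 1, 0 and 1 of Ackr4. These genes passed the count filter through the peripheral pools, so their folds stand on a mesenteric level near 0. In library 1 the WT and Xbp1-KO peripheral pools held 19 and 30 UMIs of Mmrn1 and 7 and 34 of Prox1. The calls of these genes were lost without the peripheral Xbp1-KO pool of library 1. That group then held 0 UMIs of Prox1, Stab2, Mmrn1 and Sema3d, so a fold from that fit does not measure a difference. UMIs of the 5 lymphatic genes named above were 5.61, 0.927, 4.52 and 0.532 per 10000 in library 1 and 1.18, 0.0215, 0.673 and 0.454 in library 2, highest in the peripheral pools of library 1. Their part in each of these differences was not tested gene by gene. Among cells with fewer than 2 lymphatic UMIs, 15 of 4884 genes (0.307%) were called, and 3 of them were also called with all cells.

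The 287 cells with fewer than 2 lymphatic UMIs gave other values for genes of mesenteric nodes. Peripheral cells with fewer than 2 lymphatic UMIs, 39 in all, held 9 Madcam1 UMIs in 2 cells, or 27.7 CPM without TMM scaling. The 248 mesenteric cells held 8806 UMIs or 3583 CPM. The peripheral pools held 0 and 1 UMIs in library 1 and 8 and 0 in library 2 (WT, then Xbp1-KO). Madcam1 thus passed the count filter through the mesenteric pools, and no p is given for these cells. Nkx2-3, a homeobox gene needed for MAdCAM-1 in mouse gut and spleen vessels, had 0 UMIs in those 39 cells and 149 in the mesenteric cells, where 33.9% of cells carried it. Among the 11 peripheral cells left out it had 7 UMIs. With all cells the difference was -1.85 ± 0.56 and not called (adjusted p = 0.215). Against a limit of 3 counts pooled over the 39 cells (9.24 CPM), the mesenteric level of 60.6 CPM was at least 6.56-fold higher. That limit covers counting error only, and 233002 of the 324546 UMIs behind it came from the Xbp1-KO pool of library 1. The gene entered the fit through the mesenteric pools alone, so no p is given. In capillary-gene cells too Nkx2-3 followed the node type, in 0.196% of peripheral and 14% of mesenteric cells. Slco2a1 stood at 9.24 CPM in peripheral and 259 in mesenteric high endothelial cells, from 3 and 637 UMIs. With so few peripheral UMIs it too passed the count filter through the mesenteric pools, so no p is given for these cells. The 11 peripheral cells left out held 37 UMIs of it. With all cells it stood at 84.5 and 257 CPM before TMM scaling, with a difference of -1.33 ± 0.31 that was not called (adjusted p = 0.0526, and 0.00752 with library as a block).

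Some genes were higher in peripheral high endothelial cells once lymphatic transcripts were set aside. The peripheral pools then held 2, 28, 6 and 3 cells. Ly6i had 399, 331, 852 and 55.6 CPM before TMM scaling in the WT and Xbp1-KO peripheral pools of library 1 and then of library 2, from 5, 77, 52 and 1 UMIs, and 41.5, 86.5, 190 and 32.5 in the mesenteric pools in the same order. The peripheral pool was higher in each of 4 pairs, with a log2 difference of 2.39 ± 0.35 (adjusted p = 1.52e-08), although the lowest peripheral pool lay within the mesenteric range. Ptgds had 159, 248.9, 426 and 55.6 CPM before TMM scaling in the peripheral pools, from 2, 58, 26 and 1 UMIs, and 32.1, 130, 53.9 and 38.6 in the mesenteric pools. It gave 2.22 ± 0.34 (adjusted p = 1.19e-07), but 21 of the 26 UMIs were in the 1 cell named above. With all cells it was not called (1.6 ± 0.43, adjusted p = 0.127, and 0.0101 with library as a block). Itih5 gave 2.25 ± 0.53 (adjusted p = 0.00867) from 1, 10, 7 and 4 peripheral UMIs, and was not called with all cells (1.69 ± 0.52, adjusted p = 0.234). The heat-shock genes Hspa1a (-3.18 ± 0.49) and Hspa1b (-2.38) were lower in peripheral cells. The cells left out held most of the peripheral UMIs of both, 85 of 100 for Hspa1a and 178 of 204 for Hspa1b. With all cells neither was called, at -0.98 ± 0.32 for Hspa1a (adjusted p = 0.309) and -0.06 ± 0.32 for Hspa1b (adjusted p = 0.98). Ly6i and Ptgds were also the genes with the highest values in Glycam1-rich cells, as given above. In these cells the Glycam1 median was higher in the peripheral than in the mesenteric pool of the same genotype and library in 4 of 4 pairs, and with all cells in 3 of 4, the WT pools of library 1 being the exception at 212 against 269 UMIs per 10000. The part of the Glycam1 level in these differences was not tested.

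**Figure D3:**
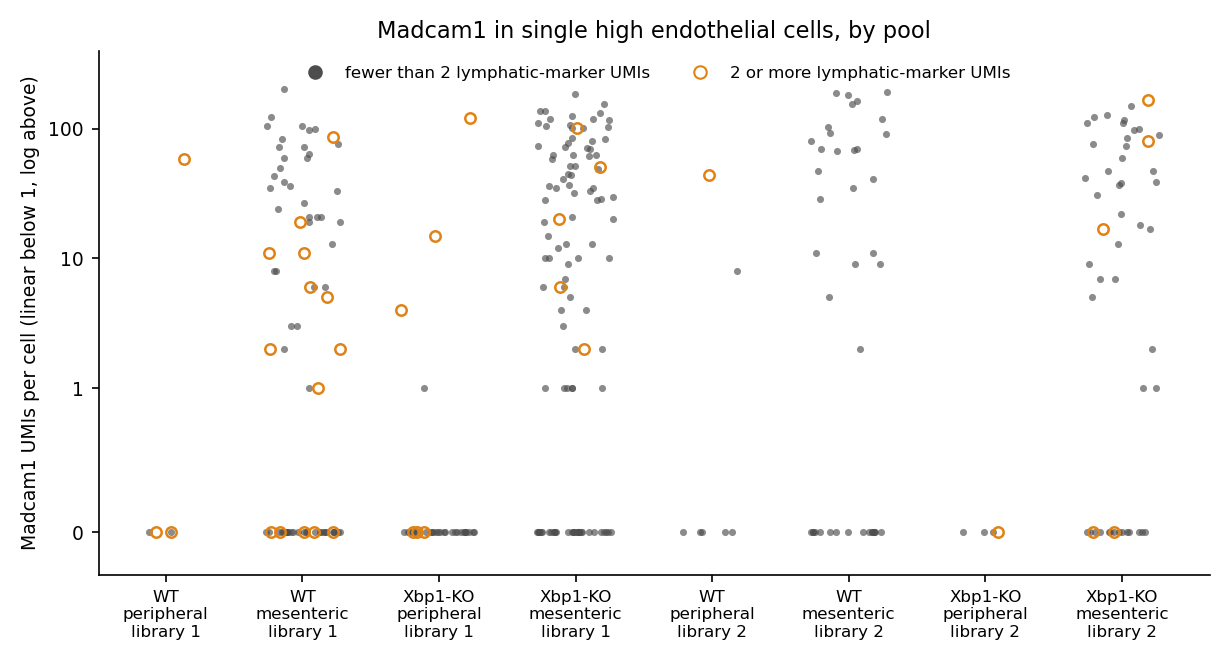
Madcam1 UMIs in each high endothelial cell by pool and library; open orange points are cells with at least 2 lymphatic-marker UMIs. Most peripheral cells are at 0, and the 4 peripheral cells with 10 or more all hold lymphatic UMIs, while mesenteric pools range from 0 to high counts.

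The few peripheral cells with Madcam1 were unusual in other ways. Of 251 peripheral Madcam1 UMIs, 242 lay in 5 of the 11 cells with lymphatic transcripts. The 4 peripheral cells with at least 10 Madcam1 UMIs held 58, 23, 7 and 9 lymphatic UMIs. Their second hashtag was that of a mesenteric pool, and the top tag exceeded it by 3.84, 3.31, 3.88 and 7.05 times, against a median of 28 over peripheral cells. Lymphatic-gene cells outside the class carried Madcam1 in 26.7% of peripheral and 40.3% of mesenteric cells, at median depths of 5717 and 6262 UMIs. Capillary-gene cells carried it in 2.69% and 3.10%, at 2705 and 2773 UMIs.

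Mesenteric high endothelial cells were themselves divided in Madcam1. Of 272 cells, 94 (34.6%) had 0 UMIs, 42 (15.4%) had 1 to 9 and 136 (50%) had at least 10. The share of cells with Madcam1 in the 4 mesenteric pools was 58.7% and 71.0% in library 1 and 60% and 68.0% in library 2 (WT, then Xbp1-KO), 60%, 67.3%, 59.0% and 68.9% after thinning to one depth, and 57.4%, 69.6%, 60% and 68.9% with the 35 cells left out. Median depth was 8349 UMIs without and 8570 with at least 10 Madcam1 UMIs in WT cells and 9643 and 9369 in Xbp1-KO cells of library 1. In library 2 it was 9767 and 11841.5 in WT and 11768 and 10339 in Xbp1-KO cells, so neither kind of cell was deeper in every pool.

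Cells with at least 10 Madcam1 UMIs were set beside cells with 0 in each mesenteric pool, as CPM over the UMIs outside Glycam1 and Madcam1. This division was made after the values had been seen and carries no test. Slco2a1 was higher in Madcam1 cells of every pool, at 410 against 142 and 523 against 84.5 in library 1 and 317 against 36.2 and 392 against 192 in library 2 (WT, then Xbp1-KO). Nkx2-3 was higher too, at 74.8 against 7.86 and 89.8 against 21.1 in library 1 and 136 against 43.4 and 113 against 0 in library 2. Aplnr, the apelin receptor of venous and angiogenic endothelium, Plpp3, a lipid phosphatase, and Ackr1, the venular chemokine receptor, were also higher in 4 of 4 pools. Of the 6 venous genes compared, 2 were higher in all 4 pools and 4 were mixed. Of the 14 dissociation-response genes, 2 were higher in all 4 and 12 were mixed.

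The sulfotransferase genes Chst2 and Chst4 and the marker Ubd were lower in cells with Madcam1. Chst2 was 103 with against 145 without Madcam1 and 104 against 220 in library 1, and 222 against 384 and 95.5 against 156 in library 2. Chst4 was 192 against 236 and 69.8 against 114 in library 1, and 109 against 217 and 102 against 168 in library 2. Ubd was lower in all 4 pools, at 1924 against 2547, 3207 against 3411, 1945 against 3518 and 2008 against 2753. Ccl21a and Sparcl1 were also lower in Madcam1 cells of 4 of 4 pools, while Fut7 was lower in 2 of 4. Of the 6 listed sulfo sialyl Lewis X enzyme genes with at least 100 UMIs, Chst2 and Galnt1 were lower in all 4 pools and 4 were mixed. Among 4 sialomucin scaffold genes 2, Glycam1 and Emcn, were lower in all 4 and 2 were mixed. Among the other 287 cells Slco2a1, Nkx2-3, Aplnr, Plpp3 and Ackr1 were still higher and Ccl21a, Chst2, Chst4, Ubd and Sparcl1 still lower in 4 of 4 pools. Among 161 listed genes with at least 100 UMIs, 26 were higher and 15 lower in all 4 pools, at a median difference of 0.07 on the log2 scale.

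The Xbp1-KO label was first set against Xbp1 itself (chr11:5520659-5525893, plus strand, GRCm38), which was still counted in Xbp1-KO cells. Xbp1 stood at 300 and 286 CPM in WT and 282 and 165 in Xbp1-KO pools of peripheral nodes (libraries 1 and 2), and at 485 and 455 in WT and 288 and 326 in Xbp1-KO pools of mesenteric nodes. Each Xbp1-KO pool was below the WT pool of its tissue and library, and in mesenteric nodes the groups did not overlap (470 ± 21.1 against 307 ± 26.7 CPM, SD, n = 2). The log2 difference was -0.64 ± 0.33 in mesenteric and -0.35 ± 0.42 in peripheral nodes, which did not pass the test (adjusted p = 1 and 0.998). With the 35 cells left out the differences were -0.62 and -0.37, and the Xbp1-KO pool was above the WT pool in peripheral nodes of library 1, by 0.87. Counts from the 3′ end can include transcripts that lack a deleted internal exon, so this level does not check the label.

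Averaged over both tissues, no gene of 5634 passed the test for Xbp1-KO against WT (0.0% called by edgeR, with 184 genes at an unadjusted p under 0.05; DESeq2 called 0, with 55). Fbln2, which encodes the matrix protein fibulin-2, and Vwf, von Willebrand factor of venous endothelium, came closest. Fbln2 was 99.9, 90, 38.1 and 32.3 CPM in library 1 and 143, 104, 23.6 and 22.7 CPM in library 2, the WT pools first. Every Xbp1-KO pool lay below every WT pool, with a log2 difference of -1.84 ± 0.36 (adjusted p = 0.0728). Vwf was 366, 573, 83.9 and 151 CPM in library 1 and 390, 244, 118 and 231 CPM in library 2. Here too all Xbp1-KO pools lay below all WT pools, narrowly so in mesenteric nodes of library 2, and the difference was -1.63 ± 0.32 (adjusted p = 0.0728). Few cells carried it in peripheral pools: 1 cell held 15 of the 22 Vwf UMIs of the WT pool of library 1, which went from 475 to 211 CPM before TMM scaling without it, below the 222 of the Xbp1-KO mesenteric pool of library 2. All 5 Vwf UMIs of the Xbp1-KO peripheral pool of library 2 were in 1 cell. With library as a block in the edgeR fit both genes passed, at adjusted p = 0.0352 for Fbln2 and 0.00566 for Vwf, the 2 genes called there. Without the cells that held lymphatic transcripts Fbln2 had -1.74 ± 0.48 (adjusted p = 0.549) and Vwf -1.12 ± 0.41 (0.886), and the Xbp1-KO pool was then above the WT pool for Vwf in 1 of 4 pairs. In the mesenteric comparison of those cells 3 of 4884 genes (0.0614%) were called, Cxcl9, Hamp and Fbln2 (-1.86, adjusted p = 0.0339). With a term for the pools that carry Xist, both passed, at 0.0360 and 0.0292.

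In mesenteric nodes 2 of 5634 genes (0.0355%) were called, both higher in Xbp1-KO cells. With library as a block Fbln2 was called as well (-1.79, adjusted p = 0.0368). Cxcl9 (chr5:92321347-92328079, GRCm38), an interferon-induced chemokine, was 42.6 and 14.2 CPM in the WT and 178 and 167 CPM in the Xbp1-KO mesenteric pools, and 66.6 and 26.0 against 38.1 and 70.9 CPM in peripheral pools. The mesenteric groups did not overlap and the peripheral ones did, with a mesenteric difference of 2.49 ± 0.41 (adjusted p = 0.0101). Single cells carried much of it: 1 cell held 66.4% and 54.5% of the Cxcl9 UMIs of the Xbp1-KO mesenteric pools. Without that cell the level was 49.0 and 73.8 CPM before TMM scaling, against 30.8 and 8.97 in the WT pools, each likewise without its top cell. Cells with Cxcl9 were 17 of 107 and 13 of 50 in Xbp1-KO pools and 11 of 75 and 5 of 40 in WT pools (15.9%, 26.0%, 14.7% and 12.5%). Such shares were also found in other cells: Cxcl9 was in 9.95% of mesenteric capillary-gene cells, at a median of 2773 UMIs, and in 16% of mesenteric lymphatic-gene cells outside the class, at 6262 UMIs, so the share of cells with Cxcl9 is not read as a difference.

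Hamp (chr7:30942368-30944032, GRCm38), which encodes the iron-regulating peptide hepcidin, was 101 and 14.2 CPM in the WT and 361 and 514 CPM in the Xbp1-KO mesenteric pools. The mesenteric groups did not overlap, and the difference was 2.82 ± 0.49 (adjusted p = 0.0101). Cells with Hamp were 24 of 107 and 4 of 50 in Xbp1-KO and 10 of 75 and 2 of 40 in WT pools. In library 2, 1 of the 4 cells held 51.3% of the UMIs. Without the WT mesenteric pool of library 2 neither gene was called (Cxcl9 adjusted p = 0.175, Hamp 0.141), and DESeq2 called 0 genes, with 25 at an unadjusted p under 0.05.

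**Figure D4:**
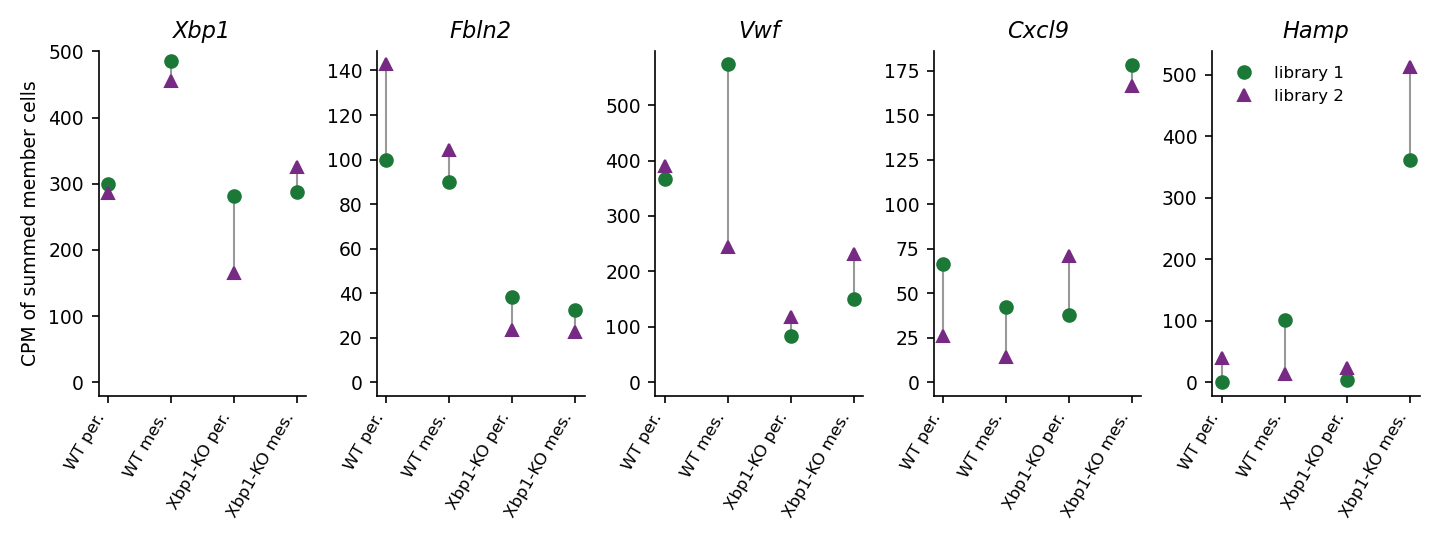
Level (CPM) of Xbp1, Fbln2, Vwf, Cxcl9 and Hamp in high endothelial cells by pool; circles are library 1 and triangles library 2. Fbln2 and Vwf are lower in all Xbp1-KO pools than in all WT pools, and Cxcl9 and Hamp are highest in the Xbp1-KO mesenteric pools.

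The remaining genes with the smallest mesenteric p-values did not pass (adjusted p = 1). Clu, which encodes the secreted chaperone clusterin, had -1.29 ± 0.36. Selenos and Nucb2, an ER membrane selenoprotein and a calcium-binding secretory protein, had -1.18 ± 0.33 and -1.13 ± 0.34, and Sparcl1 -1.70 ± 0.49. On the higher side were Nfkbiz (1.51), an inhibitor-like NF-kB regulator, Emp3 (1.5) and Rnd1 (1.26). Each of these 7 genes had 1 sign in both libraries.

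Genes of the secretory pathway, the known targets of XBP1, had mostly negative differences in mesenteric Xbp1-KO cells, none of them called. Of 25 genes of ER translocation and N-glycosylation, 1 had a positive difference, and the median was -0.61 beside 0.00 over all genes, of which 49.6% were positive. Sec61b, a subunit of the translocon, was 728 and 581 CPM in the WT and 453 and 265 CPM in the Xbp1-KO mesenteric pools. The groups did not overlap, but the difference of -0.89 ± 0.35 did not pass (adjusted p = 1). Serp1, which stabilises the translocon, had -0.92 ± 0.37, and Spcs3, a signal peptidase subunit, -1.19 ± 0.45. Within libraries, 23 of the 25 genes were lower in library 1 and 22 in library 2, and 20 were lower in both, against 22.3% of all genes. Of the 24 genes tested with the 35 cells left out, 1 was positive, at a median of -0.57.

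Folding genes were also mostly negative and transport genes less so, none of them called, and the lists were not tested against each other. Of 23 genes of ER folding and degradation, 3 were positive, at a median of -0.35. Within libraries 21 were lower in library 1 and 15 in library 2, and 15 were lower in both. With the 35 cells left out 4 of 21 were positive, at -0.39. Manf, a secreted ER stress factor, and Edem1, which sends misfolded glycoproteins to degradation, had -0.58 and -0.91. The chaperone gene Hspa5 (BiP) had 0.52 ± 0.33, with 622 and 455 CPM in WT and 701 and 870 CPM in Xbp1-KO mesenteric pools, and Herpud1, an ER stress gene of the degradation machinery, had 0.73 ± 0.42. Of 32 genes of ER to Golgi transport, 11 were positive, at a median of -0.14. Within libraries 20 were lower in library 1 and 17 in library 2, where 53.1% lay near the 47.3% of all genes. In both libraries 13 were lower and 8 higher. The enzymes of sulfated sialyl Lewis X stood near 0, with 3 of 9 positive and a median of -0.02. By value Fut7 had 0.03 ± 0.35, Chst4 -0.77 ± 0.40 and Ubd 0.30 ± 0.34, none called. Creb3l2, a related ER-anchored factor, had -0.27 ± 0.35, and Creb3l1 gave 2 UMIs in the whole class.

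In peripheral nodes, with 4 to 34 cells per pool, the lists had other values. No gene of 5634 passed (0.0% called by edgeR, 216 at an unadjusted p under 0.05; DESeq2 called 0, with 100). ER translocation and N-glycosylation genes were positive in 13 of 25 at a median of 0.01, ER folding genes in 13 of 23 at 0.15, and sulfated sialyl Lewis X enzymes in 7 of 9 at 0.49, beside a median of 0.03 over all genes. Venous genes were positive in 1 of 7, at a median of -0.96. Vwf, one of the 7, had -2.12 ± 0.52, and Ackr1 -0.96 ± 0.45 (adjusted p = 0.998 for both). The test of the difference between tissues called no gene either (0.0% by edgeR, 209 at an unadjusted p under 0.05; DESeq2 called 0, with 85), so the ER lists are not shown to respond differently in peripheral and mesenteric cells.

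Beside these lists, dissociation-response genes had mostly positive differences with Xbp1-KO in mesenteric and mostly negative ones in peripheral nodes, none called. In mesenteric nodes all 14 were positive, at a median of 0.72, beside 49.6% of all genes. In both libraries 12 of the 14 were higher, against 1456 of all 5634 genes. In peripheral nodes 2 of 14 were positive, at a median of -0.48, beside 51.7% of all genes. When the 35 cells were left out all 14 were positive in mesenteric nodes, at 0.73, and 5 of 14 in peripheral nodes, at -0.28. Atf3, an immediate-early factor on that list, was 177 and 192 CPM in WT and 252 and 696 CPM in Xbp1-KO mesenteric pools, but 416 and 441 in WT and 126 and 142 in Xbp1-KO peripheral pools. The 4 groups did not overlap within a tissue, and Atf3 had the smallest p for the difference between tissues (3.14 ± 0.64), which did not pass (adjusted p = 0.212, and 0.0196 when library was a block). The part of tissue handling in the genotype comparisons was not tested. Xist also marks opposite genotypes in the 2 libraries, as given for Glycam1 above.

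**Figure D5:**
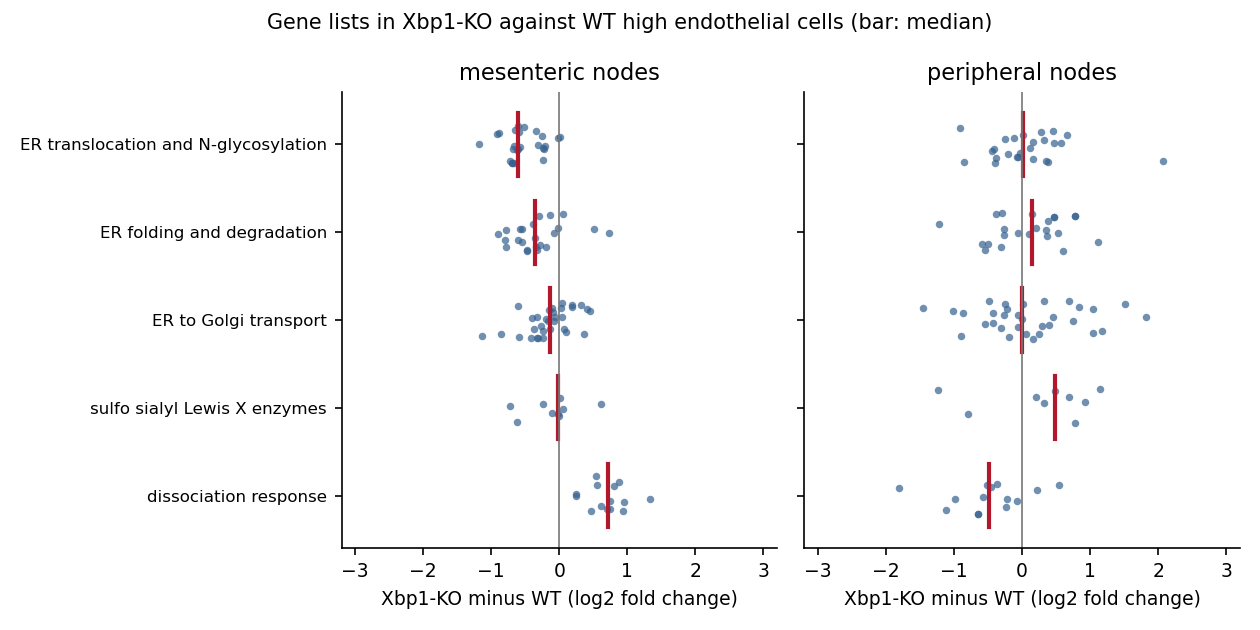
Log2 difference between Xbp1-KO and WT high endothelial cells for the genes of 5 lists, in mesenteric (left) and peripheral (right) nodes; each point is a gene and the red bar is the list median. In mesenteric nodes ER translocation and N-glycosylation genes lie mostly below 0 (median -0.61) and dissociation-response genes above it (median 0.72), with medians of 0.01 and -0.48 in peripheral nodes.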

How the data were processed

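The deposited matrices hold raw UMI counts per gene and cell barcode for 2 libraries of tagged endothelial cells, which the authors made with Cell Ranger (version 6.0.1 per the file headers, 6.1 on mm10 per the submitters' processing notes). The labels name kit version 2 in one place and version 3 chemistry in another. No column belonged to other samples (0). Of 32285 gene identifiers, 32235 (99.8%) were found in GENCODE M21, which gave coordinates. A second identifier named Ccl21a held 5 UMIs over all barcodes, against 106587 for the one used. Doublets were treated only through the tag ratio and the blood-cell limit. The members and gene lists were chosen with earlier results of these data known.

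Counts of member cells were summed per library and tag (8 sums) and fitted with edgeR 4.0.16 in R 4.3.3 (TMM, filterByExpr, glmQLFit and glmQLFTest on the 4 group means, Benjamini-Hochberg adjustment, threshold 0.05). CPM are counts per 1000000, scaled by TMM unless stated. High and low cells of each pool gave 16 sums with pool as block. Glycam1 and Ccl21a, and in that fit the 3 score genes, were kept out of the tests. The division by Glycam1 share gave values only. The program score was compared over 8 pool medians by exact permutation. Cells were also thinned to 5000 UMIs. The fits were tested on simulated counts. DESeq2 1.42.0, other normalization, filters and thresholds, a library block and left-out pools were alternatives. Named genes were the markers and Xbp1, up to 12 called genes per direction with the same sign in every pair (where fewer than 5 passed, the 5 of smallest p), and the most abundant and lowest-p genes of each list. Other genes were named after their values were seen, and 1 gene is not reported here. Summed UMIs per pool are given in the report's opening as a range.

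Pools of one number were mixed in one library, per the labels, so library was also fitted as a block, and values are given where it changed a call. The deviations of pools from their group means correlated within libraries by 0.027 to 0.141.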

Additional observations from a re-analysis of the deposited data

Results flagged for a closer look

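The Glycam1 level drew attention because the Xbp1-KO minus WT difference went one way in both node types of library 1 and the other way in both of library 2. The pool medians differed by 2486 UMIs per 10000 in peripheral and 916.9 in mesenteric cells of library 1, and by -938.5 in peripheral and -554.1 in mesenteric cells of library 2. The difference between libraries was not tested. Glycam1 also chose the cells, and the pools with the higher medians were those in which most cells carried Xist.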

How the results depend on the processing

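Without a filter on low counts, the calls were 4 for Xbp1-KO against WT over both tissues, 9 in mesenteric nodes, 1 for the difference between tissues, 64 between node types and 39 between high- and low-score cells. DESeq2 called 0 in mesenteric nodes, 8 between node types and 8 between score groups. Among cells with fewer than 2 lymphatic UMIs the counts were 1 over both tissues and 15 between node types. A tag at least 5 times the next left 1 mesenteric call and 9 between node types, leaving out the deepest 5% of cells left 1 and 11, and thinning the sums left 0 and 1. Mesenteric sums alone gave 1 mesenteric call, and mesenteric pools alone gave 29 between score groups. Thinned cells gave 3. The score without Chst4 gave 1 call and without Ubd 3. A term for the pools with Xist, added after seeing the data like the mesenteric subsets, gave 2 calls over both tissues. The cause of these moves was not tested.

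Pools of one number share a library and its run, though the labels do not say that they share animals. With the library as a replicate block, 2 genes were called over both tissues (Fbln2 and Vwf), 3 in mesenteric nodes, 1 for the difference between tissues and 50 between node types.

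Leaving out single pools or a library gave 0 to 25 calls over both tissues (25 without library 2), 0 to 1 in peripheral nodes, 2 to 16 in mesenteric nodes (16 without the mesenteric Xbp1-KO pool of library 1), 0 to 2 for the difference, 0 to 60 between node types (0 without library 1, 2 without the peripheral Xbp1-KO pool of library 1) and 1 to 24 between score groups (24 without that same peripheral pool).

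Some genes higher in peripheral pools with lymphatic transcripts had negative fitted values without the peripheral Xbp1-KO pool of library 1. The Xbp1-KO peripheral group then held 0 UMIs of each of these genes. Their negative values therefore depend on the prior count and are not read as reversals. With that fit at the lower end, values over left-out pools ranged from -0.67 to 5.76 (Cyp1b1), -0.021 to 5.93 (Cyp4b1) and -0.86 to 3.57 (Ifit2). The others ranged from -2.52 to 2.45 (Maf), -0.22 to 5.88 (Prox1), -0.21 to 5.85 (Stab2) and -0.89 to 4.75 (Tnc). Maf was at -6.19 among cells with fewer than 2 lymphatic UMIs. The genotype difference of the program score, close to 0 at -0.0087, was 0.0178 by the mean, 0.0391 on thinned cells and 0.0580 with at least 40 Glycam1 UMIs, but -0.103 among cells with fewer than 2 lymphatic UMIs and -0.0676 with at least 10 Glycam1 UMIs.

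Depth limits low genes in the peripheral pools of 4, 5, 7 and 34 cells, where fitted values depend on the prior count.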
